A study of Mus musculus with 8 samples.

Results

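The cells described here are stem-like wells, 51 on each of 8 plates, chosen from 2727 wells of plates into which single mouse bone marrow cells were sorted. A well was kept if it had at least 1000 gene counts and 500 genes. Within each of 8 plates, the 15% of wells with the most counts of Mecom, Procr, Meg3, Mllt3 and Grb10 together, per 10000 gene counts, were called stem-like. The remaining 2319 wells of the same plates are the cells they were set against. All cells came from Dach1-GFP mice aged 8 to 16 weeks, in which the locus of Dach1, a transcriptional cofactor, carries a biotin tag and makes GFP from the same transcript. The allele was made in 1 targeted C57BL/6 embryonic stem cell clone, and both groups carry it. They were sorted as LSK cells, the Sca1- and cKit-bearing marrow fraction, and sequenced by CEL-seq2, which counts the 3' ends of polyadenylated RNA. The plates form a set of 4 named LC (replicates 1 to 4) and a set of 4 named LCE (replicates 5 to 8). How many animals gave the cells of a plate is not stated, and p-values measure only plate-to-plate spread, part of which may be technical.

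Blood stem cells are the rare LSK cells that can rebuild all blood lineages, and they divide seldom. In the mouse they carry CD150 on their surface and little CD48 and CD135, while progenitors that lose stem cell activity gain CD48 and then CD135. Mecom encodes EVI1, a zinc finger transcription factor that stem cells need to be maintained. Procr encodes EPCR, the endothelial protein C receptor, a surface marker of stem cells. Meg3 is a long noncoding RNA of the imprinted Dlk1 locus, Grb10 an imprinted adaptor protein of growth factor receptors, and Mllt3 a chromatin reader known in human blood stem cells for keeping their activity.

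The values that chose the wells are given as a description. Among the stem-like wells, Mecom was counted in 269 (65.9%), Mllt3 in 200 (49.0%), Procr in 164 (40.2%), Grb10 in 71 (17.4%) and Meg3 in 56 (13.7%). In the 2319 remaining wells, Mllt3 was counted in 396 (17.1%), Mecom in 366 (15.8%), Procr in 246 (10.6%), Grb10 in 100 (4.31%) and Meg3 in 53 (2.29%). The choice of wells therefore rested mostly on Mecom, Mllt3 and Procr, and little on Meg3. The rule genes are rare transcripts: 47 stem-like wells entered on 1 count, 115 on 2, 78 on 3, 66 on 4 and 102 on 5 or more. A total of 145 stem-like wells had 1 of the 5 genes, 190 had 2, 58 had 3, 14 had 4 and 1 had all 5. The lowest score inside the group was 2.08 to 3.06 counts per 10000 over the 8 plates, and the highest score outside it was 2.03 to 3.05. Because each plate gives the same share of its wells, the number of stem-like wells says nothing about how frequent stem cells were.

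Stem-like wells were shallower than the remaining wells of their plate. Their median gene counts were 4406 to 10684 over the 8 plates, against 5875 to 14319 in the remaining wells, lower on 8 of 8 plates (mean log2 ratio -0.36 ± 0.10, SD; exact two-sided sign-flip permutation test over plates, p = 0.00781, the smallest it can give). They also had fewer genes, with medians of 2113 to 3640 in stem-like and 2553 to 4119 in remaining wells. The median share of mitochondrial counts was higher in stem-like wells on 8 of 8 plates (4.35% to 6.44%, against 4.06% to 6.28% in remaining wells; mean log2 ratio 0.08 ± 0.03, SD; exact p = 0.00781), and its part in the results was not tested. Of the shallowest tercile of each plate's wells 25.7% were stem-like on average, of the middle tercile 13.5% and of the deepest tercile 5.71%. The score divides by total counts, so a single count weighs more in a shallow well. For this reason most results against the remaining wells are also given for a depth-stratified choice, in which the top 15% was taken separately among the shallow, middle and deep wells of each plate. That choice gave as many wells, 305 of them the same (74.8%), with median counts of 5073 to 13544, against 5744 to 13352 in its remaining wells. Lower forward scatter, a measure of cell size, moved with the depth: on the 4 LCE plates that have it, the mean percentile rank of stem-like minus remaining wells was -13.3 ± 4.68 points (SD), and -3.31 ± 3.17 points under the depth-stratified choice. Whether smaller cells or lower capture made the wells shallow cannot be told apart.

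**Figure D1:**
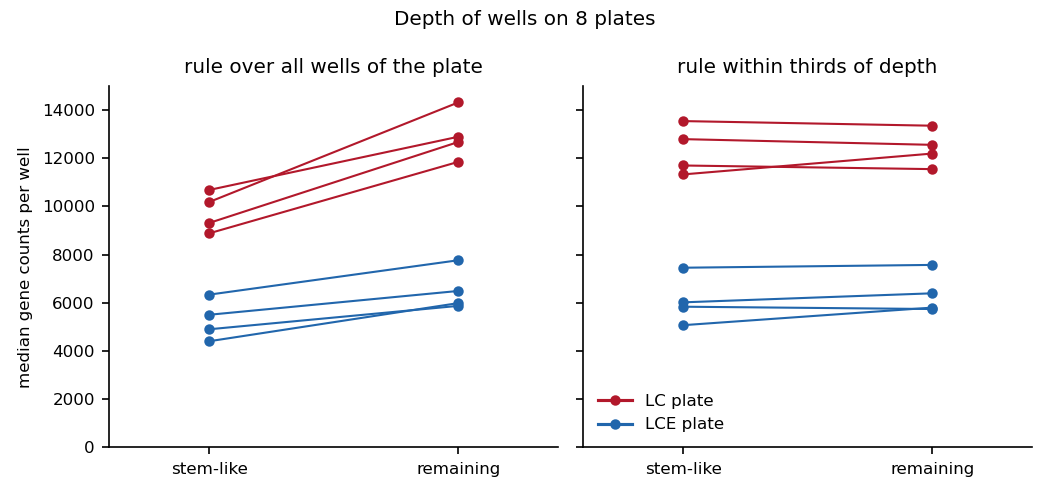
Median gene counts per well of stem-like and remaining wells on each plate (1 line a plate), for wells chosen over the whole plate (left) and within depth strata (right). All 8 lines rise to the right in the left panel; in the right panel 4 rise and 4 fall.

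Each rule gene was tested once on wells chosen by the other 4 genes. Procr was higher in wells chosen without it, with a mean of 41.7 ± 21 CPM (counts scaled to the size of the summed library) against 18.1 ± 6.92 CPM in the remaining wells (SD, n = 8 plates; log2 difference 1.32 ± 0.22, SE; edgeR quasi-likelihood test, adjusted p = 1.18e-05). Procr was higher on 6 of 8 plates. Mllt3 gave 55.0 ± 22.2 against 27.5 ± 8.69 CPM (1.03 ± 0.16, adjusted p = 7.32e-07), and was higher on 8 of 8 plates. Mecom gave 61.0 ± 25.9 against 33.3 ± 3.2 CPM (0.85 ± 0.16, adjusted p = 0.000111), also on 8 of 8 plates. Grb10 gave 18.2 ± 10.2 against 6.89 ± 3.41 CPM (1.35 ± 0.30, adjusted p = 0.00114), higher on 7 of 8. Meg3 did not pass the filter on low counts; it had 76 counts in the chosen wells and 114 in all the remaining ones, and was higher on 7 of 8 plates. With wells chosen in depth strata, Procr (0.84 ± 0.20, adjusted p = 0.0141) and Mllt3 (0.68 ± 0.15, adjusted p = 0.00716) still passed, while Mecom (0.47 ± 0.15, adjusted p = 0.205) and Grb10 (0.86 ± 0.31, adjusted p = 0.23) did not. On the LCE plates alone Mecom passed and Procr did not (log2 difference 0.42, adjusted p = 0.702), against 1.96 on the LC plates (adjusted p = 1.77e-05).

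The cells' surface phenotype was not used by the rule. Stem-like wells ranked higher than the remaining wells of their plate for Dach1-GFP and Sca1 and lower for CD48 and CD135. GFP fluorescence had medians of 909 to 1793 in stem-like wells and 563 to 1441 in remaining wells over the 8 plates, and the medians of a plate differed in the same direction on 8 of 8. The mean percentile rank of stem-like wells for GFP was 60.4, against 48.3 for remaining wells, a difference of 12.1 ± 3.55 points (SD, n = 8; exact sign-flip test p = 0.00781, adjusted over 12 measures 0.0469). For CD135, the FLT3 receptor, stem-like wells averaged 42.0 and remaining wells 51.6, a difference of -9.66 ± 6.33 points in the same direction on 8 of 8 plates (exact p = 0.00781, adjusted p = 0.0469). These are the only 2 of 12 measures that passed over all wells, and 8 plates allow no smaller p. Leaving out any 1 plate raises the smallest possible p to 0.0156, and no measure then passed.

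CD48, which marks progenitors, was recorded on the 4 LCE plates and showed the widest gap of the 12 measures. Its median fluorescence in stem-like wells was 2464, 2105, 2372 and 2195 on replicates 5 to 8, against 4308, 4940, 4530 and 4998 in the remaining wells. The plates did not overlap: each stem-like median lay below each remaining one. The difference in rank was -20.5 ± 4.72 points (n = 4, where an exact test cannot go below p = 0.13), and -12.1 ± 2.73 points under the depth-stratified choice. Of the stem-like wells on these plates, 58.8% lay in the lowest tercile of their plate for CD48 and 14.7% in the highest.

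Sca1, the protein of Ly6a, ranked 13.1 ± 8.30 points higher in stem-like wells, on 7 of 8 plates (exact p = 0.0156, adjusted p = 0.0625). Its median fluorescence was 5500 to 9573 against 2780 to 4395 on LC plates, without overlap, and 3783 to 5782 against 3862 to 4009 on the LCE plates, with overlap. CD150 differed little: stem-like wells ranked 2.79 ± 5.27 points higher, on 6 of 8 plates (exact p = 0.172, adjusted p = 0.229). Stem-like wells were found at both ends of CD150, 39.5% in the highest and 34.6% in the lowest tercile of their plate. With depth strata, CD150 ranked 4.99 ± 5.19 points higher (8 of 8 plates), and GFP, CD135, Sca1 and CD150 all had an adjusted p of 0.0469. CD11b ranked 6.09 ± 5.60 points higher (exact p = 0.0312, adjusted p = 0.0938) and IL7R lower, with a difference of -3.03 ± 3.72 points (exact p = 0.0469, adjusted p = 0.113). With depth strata CD11b differed by 5.02 ± 4.64 points (exact p = 0.0312, adjusted p = 0.075) and IL7R by -0.19 ± 4.45 points (exact p = 0.898). For cKit, CD16/32 and PIR-A the means differed by 1.09 ± 5.93, -0.37 ± 3.56 and -0.44 ± 2.41 points, each smaller than the spread between plates. With depth strata the cKit difference was 5.45 ± 6.29 points (exact p = 0.0469, adjusted p = 0.0938).

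**Figure D2:**
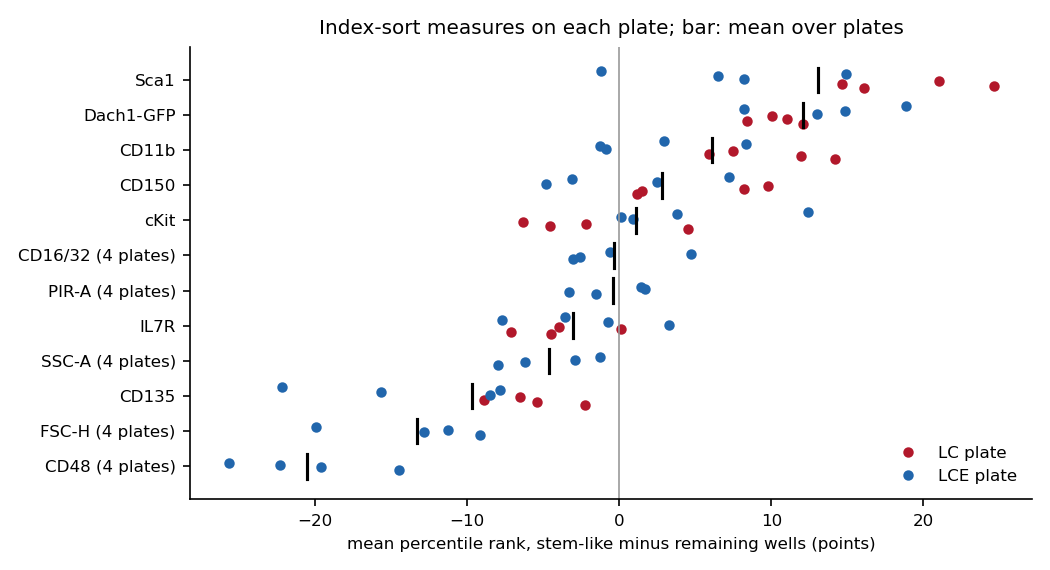
Difference in mean within-plate percentile rank, stem-like minus remaining wells, of 12 index-sort measures; each point is 1 plate, bars are means over plates. GFP is above 0 and CD135 below 0 on all 8 plates, and CD48 and forward scatter (FSC-H) below 0 on all 4 plates that have them.

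Stem-like wells were more often in the surface quadrant where stem cells are sought. With CD135 at or below and CD150 above the plate median, the quadrant held 40.2% ± 7.34 of stem-like wells (29.4% to 51.0% over plates) and 28.1% ± 1.57 of remaining wells (25.9% to 30.1%). The difference of 12.1 ± 7.0 percentage points had the same direction on 8 of 8 plates (exact sign-flip test p = 0.00781), and was 11.3 ± 7.94 points with depth strata. On the LCE plates, where CD48 at or below the median could be added, the gate held 28.4% ± 11.7 of stem-like wells (15.7% to 43.1%), against 9.93% ± 0.346 of remaining wells (9.44% to 10.2%; n = 4, exact p = 0.13, the smallest possible), a difference of 18.5 points, and of 15.7 points with depth strata. Stem-like wells made up 164 of the 809 wells of the quadrant (20.3%) and 58 of the 171 wells of the narrower gate (33.9%).

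Across the transcriptome, counts were summed per plate over stem-like and over remaining wells, and 10597 genes other than the 5 rule genes were tested. A summed value cannot tell fewer cells with a transcript from less of it per cell. Stem-like wells had higher levels of 341 genes (3.22% of those tested) and lower levels of 382 (3.6%) at an adjusted p under 0.05. Together these were 6.82% of the genes tested. Leaving out 1 plate gave 451 (without replicate 2) to 732 calls. With depth strata, 53 of 10619 genes were higher (0.499%) and 39 lower (0.367%). Of these 92 (0.866%), 82 had been called over all wells in the same direction (51 higher, 31 lower), and of the 719 called genes that were tested in both, 685 kept their sign. The median log2 difference of the genes called higher was 0.54 over all wells and 0.31 with depth strata, and that of the genes called lower -0.44 and -0.17. For thinning, the 42 wells under 3000 counts were left out and each other well was reduced to 3000 counts. The top 15% was then chosen anew from the thinned counts, so this is another choice of wells. In these thinned wells, 5 of 6918 genes were called (0.0723%), all lower: Cd74, Ighm, Igkc, Irf8 and Tmsb4x.

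Hlf, a transcription factor gene that marks and maintains stem cells and that the rule did not use, rose. It was counted in most wells of both groups, 74.5% to 94.1% of stem-like and 66.9% to 84.1% of remaining wells per plate. On replicate 2 the shares were 74.5% and 74.5%, and on replicate 8 80.4% and 80.1%. It had 277, 465 and 556 CPM as lowest, median and highest plate in stem-like wells, against 141, 237 and 373 CPM in remaining wells. It was higher on 8 of 8 plates, although the ranges of the groups overlap (log2 difference 0.90 ± 0.06, adjusted p = 9.60e-23; with depth strata 0.63 ± 0.06, adjusted p = 1.13e-14). With wells thinned to 3000 counts and chosen anew, Hlf was 0.36 ± 0.09 and did not pass (edgeR, adjusted p = 0.0924). Set against the label of the cells, Hlf passed under both choices of wells. Held out of the rule, Mllt3 and Procr also did, but not on the LCE plates alone (edgeR, adjusted p = 0.204 and 0.702). Mecom passed over all wells and not with depth strata (edgeR, adjusted p = 0.205), and Meg3 did not pass the filter on low counts. The held-out tests used wells chosen by the other 4 genes. Of the wells chosen over all wells without Mllt3, Procr and Mecom, 75.7%, 81.1% and 65.0% were stem-like wells. CD135 was lower on 8 of 8 plates but passed only with all 8 plates kept. CD48 was lower on 4 of 4 plates without a test that could pass, and CD150 did not pass over all wells.

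Of 25 stem cell transcription regulators, 21 were tested, 12 rose and none fell, with a median log2 difference of 0.37 (0.01 over all genes). With depth strata 5 of 21 rose, Hlf, Meis1, Msi2 and Zfp36l2 among them, with a median of 0.22. In thinned wells no stem cell gene was called, and the medians of this list and of the marker list that follows were 0.17 and 0.12. Meis1, a homeobox partner of the HOX proteins, had 144, 176 and 246 CPM in stem-like wells, against 90.1, 115 and 131 CPM in remaining wells. The groups did not overlap (0.73 ± 0.09, adjusted p = 5.01e-10; with depth strata 0.45 ± 0.08, adjusted p = 0.000147). Msi2, an RNA-binding protein gene, and Zfp36l2, which promotes mRNA decay, rose less, by 0.37 ± 0.06 and 0.32 ± 0.05 (adjusted p = 2.09e-06 and 5.18e-06; depth strata 0.28 and 0.19). Prdm16, a zinc finger gene that maintains stem cells, had 20.5, 28.0 and 45.4 CPM in stem-like wells against 8.75, 12.3 and 21 CPM (1.11 ± 0.23, adjusted p = 0.000267), but with depth strata 0.67 ± 0.22 (adjusted p = 0.159). Lmo2, Mycn and Gata2 likewise passed over all wells (0.31 ± 0.05, 0.72 ± 0.17 and 0.41 ± 0.10) and not with depth strata (0.14, 0.37 and 0.27; adjusted p = 0.257, 0.378 and 0.235). Without replicate 4 Gata2 had an adjusted p of 0.0632.

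Of 48 surface and other marker genes of stem cells, 31 passed the filter on low counts, of which 22 rose and none fell (median 0.59); with depth strata 12 of 30 rose (median 0.34). Mmrn1, which encodes the secreted and platelet protein multimerin 1, had 23.2, 30.8 and 72.2 CPM in stem-like wells, against 3.85, 14.6 and 23.6 CPM in remaining wells. Every plate was higher, and the groups overlapped only between the lowest stem-like and the highest remaining plate (1.59 ± 0.24, adjusted p = 1.89e-07; depth strata 1.26 ± 0.22, adjusted p = 8.20e-05). Ly6a, the gene of Sca1, had 41.8, 97.5 and 130 CPM against 45.4, 56.6 and 72.4 CPM, higher on 7 of 8 plates (0.74 ± 0.12, adjusted p = 2.35e-06; depth strata 0.53 ± 0.12, adjusted p = 0.0053). Its exception was replicate 8, the plate on which Sca1 fluorescence was also not higher.

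Other members rose by similar amounts. Pdzk1ip1, a small membrane protein gene, was higher by 1.13 ± 0.20 (adjusted p = 2.19e-05), and Gimap1, a GTPase gene of lymphocytes, by 0.92 ± 0.12 (adjusted p = 1.34e-09); with depth strata they rose by 0.74 and 0.55. Angpt1, the ligand of the TIE2 receptor, had 115, 191 and 216 CPM in stem-like wells and 94.6, 120 and 159 CPM in remaining wells (0.57 ± 0.09, adjusted p = 2.86e-07; depth strata 0.39 ± 0.08). Txnip, an inhibitor of thioredoxin and of glucose uptake that is high in resting cells, rose by 0.65 ± 0.07 (adjusted p = 4.28e-13; depth strata 0.29 ± 0.07, adjusted p = 0.00559). Ifitm1, Ifitm3 and Adgrg1 rose by 0.54, 0.44 and 0.33 and passed under both choices; the Ifitm genes are alike in sequence and may share counts. Slamf1, the gene of CD150, was too low to test, at 2.23 CPM in stem-like and 2.38 CPM in remaining wells.

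The largest rises over all wells were of rare transcripts. Trim14, of the tripartite motif family, had 6.20, 14.2 and 32.6 CPM in stem-like wells, against 1.29, 4.60 and 9.67 CPM in remaining wells, higher on 8 of 8 plates (1.88 ± 0.35, adjusted p = 3.94e-05), and was not tested with depth strata. Samd12 rose by 1.39 ± 0.30 (adjusted p = 0.000678; depth strata 1.08 ± 0.29, adjusted p = 0.0452) and Cuedc1 by 1.04 ± 0.24 (adjusted p = 0.00131; depth strata 0.90 ± 0.23, adjusted p = 0.0256). P2rx1, an ATP-gated ion channel gene, Scarf1, a scavenger receptor gene, and Rtl5, derived from a retrotransposon, rose by 1.30, 1.15 and 1.15 and did not pass with depth strata (0.90, 0.72 and 0.80; adjusted p = 0.114, 0.257 and 0.234). Plxdc2 rose by 1.21 ± 0.32 (adjusted p = 0.00816), with an adjusted p up to 0.141 when 1 plate was left out. Of the 15 largest rises, 4 were called with depth strata, Mmrn1, Samd12, Pdzk1ip1 and Cuedc1.

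**Figure D3:**
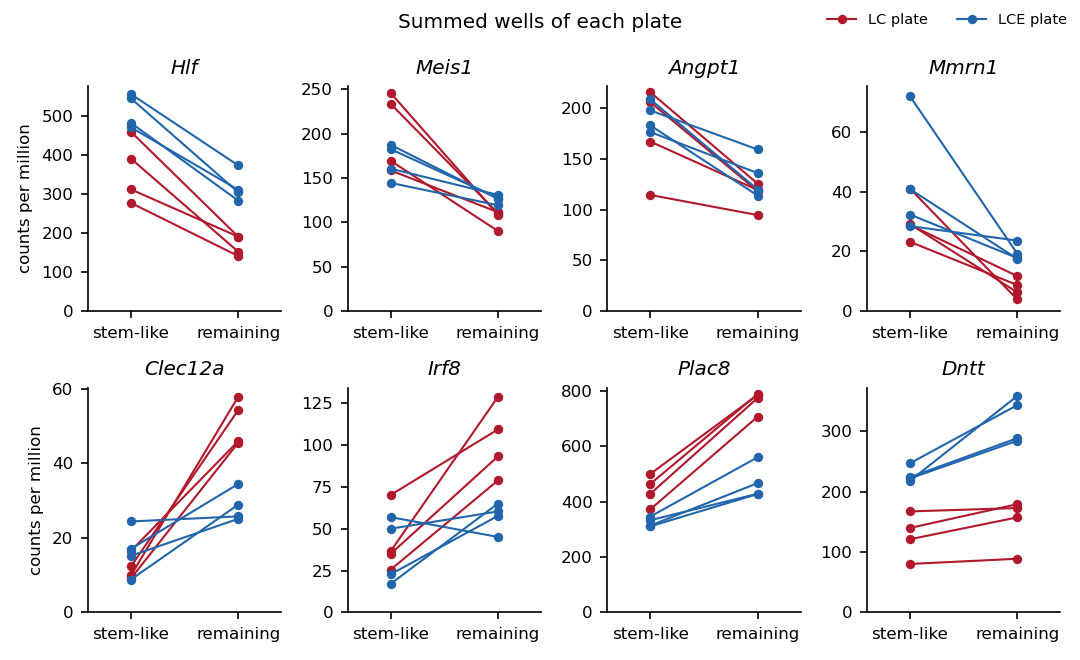
CPM of 8 genes in the summed stem-like wells (left of each panel) and remaining wells (right); 1 line joins the values of a plate. Hlf, Meis1, Angpt1 and Mmrn1 fall to the right on all 8 plates, Plac8, Clec12a and Dntt rise to the right on all 8, and Irf8 on 7.

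The genes of the sorted proteins did not all follow their proteins. Cd48 had 68.3, 87.3 and 138 CPM in stem-like wells and 99.4, 115 and 132 CPM in remaining wells, lower on 7 of 8 plates, and did not pass (-0.30 ± 0.10, adjusted p = 0.0666; depth strata -0.09 ± 0.09). Flt3, the gene of CD135, had 136, 182 and 322 CPM against 118, 190 and 255 CPM, a difference of 0.05 ± 0.08 (adjusted p = 0.818), with 0.28 on LC plates and -0.21 on LCE plates. Dach1 itself, whose reporter was higher, had 8.14, 32.3 and 49.8 CPM against 12.9, 27.7 and 46.9 CPM (-0.01 ± 0.19, adjusted p = 0.987). Kit rose by 0.36 ± 0.07 (adjusted p = 6.09e-05), though not with depth strata (0.17 ± 0.06, adjusted p = 0.242). Il7r (-0.82 ± 0.44), Itgam (-0.12 ± 0.25) and Fcgr2b (-0.63 ± 0.32) had adjusted p-values of 0.299, 0.868 and 0.26, and Fcgr3 and Pira2 were too low to test.

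Granulocyte and monocyte genes were lower. Of 23 listed, 20 were tested, 12 fell and none rose (median -0.68). With depth strata 8 of 22 fell (median -0.32). The fall was not equal in the plate sets, with a list median of -0.79 for LC and -0.41 for LCE. Mpo, the myeloperoxidase of neutrophil granules, had 114, 434 and 1130 CPM in stem-like wells, against 144, 722 and 1658 CPM in remaining wells. It was lower on 8 of 8 plates, while the plates themselves spanned a wide range (-0.73 ± 0.06, adjusted p = 2.14e-21; depth strata -0.31 ± 0.05, adjusted p = 1.36e-05). Elane and Ctsg, 2 serine proteases of the same granules, fell by 1.25 ± 0.08 and 0.90 ± 0.08 on the log2 scale (adjusted p = 4.10e-27 and 5.03e-17), and by 0.38 ± 0.09 and 0.33 ± 0.08 with depth strata (adjusted p = 0.0179 and 0.00875). Both were alike in the plate sets (LC -1.24 and -0.89, LCE -1.28 and -0.90). Prtn3 was also called lower (-0.66 ± 0.06), but on 5 of 8 plates, with -0.88 for LC and -0.04 for LCE. An edgeR test of the difference between plate sets called 8 genes, Prtn3 among them (adjusted p = 1.77e-07). The cause was not tested. Plac8, a small protein gene of myeloid and lymphoid progenitors, had 311, 359 and 500 CPM against 427, 633 and 788 CPM, lower on 8 of 8 plates (-0.69 ± 0.05, adjusted p = 3.48e-21; depth strata -0.46 ± 0.05, adjusted p = 8.48e-13). Clec12a, an inhibitory lectin receptor, had 8.83, 13.8 and 24.4 CPM against 25.1, 40.1 and 57.9 CPM. No stem-like plate reached the lowest remaining one (-1.65 ± 0.23, adjusted p = 1.39e-08; depth strata -0.81 ± 0.19, adjusted p = 0.0123). Ms4a3 and Cebpa, the gene of the myeloid factor C/EBPα, fell over all wells (-1.57 ± 0.18 and -1.19 ± 0.23) and not with depth strata (-0.55 and -0.55, adjusted p = 0.0795 and 0.173). Ccr2, a chemokine receptor gene of monocytes and their precursors outside this list, was lower on 8 of 8 plates (-1.83 ± 0.28, adjusted p = 3.32e-07; depth strata -1.46 ± 0.24).

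Irf8, which encodes a transcription factor of monocytes, dendritic and lymphoid cells, fell by nearly the same amount under both choices. It had 17.1, 35.7 and 70.2 CPM in stem-like wells, against 45.1, 72.0 and 129 CPM in remaining wells, lower on 7 of 8 plates (-1.10 ± 0.15, adjusted p = 2.56e-08; depth strata -1.06 ± 0.13, adjusted p = 7.86e-09). Of 23 lymphoid priming genes, 19 were tested, 5 fell and 1 rose (median -0.23); with depth strata 5 of 18 fell (median -0.23). Dntt, the terminal transferase that marks the earliest lymphoid cells, had 80.3, 193 and 247 CPM against 88.8, 232 and 359 CPM, lower on 8 of 8 plates (-0.37 ± 0.08, adjusted p = 0.000591; depth strata -0.59 ± 0.07, adjusted p = 7.86e-09). Ighm, the immunoglobulin mu heavy chain gene, was lower on 7 of 8 plates (-0.43 ± 0.07, adjusted p = 1.72e-06; depth strata -0.69 ± 0.06). The member that rose was Il2rg, the common cytokine receptor chain (0.43 ± 0.10, adjusted p = 0.00161; depth strata 0.25, adjusted p = 0.294). Of 10 multipotent progenitor genes edgeR called none (2 at an unadjusted p under 0.05), with a median of -0.01.

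RNA of other cell types was present in both groups. Wells above the limits set for B lineage RNA were 12 stem-like and 134 remaining wells, and for macrophage RNA 7 and 54. Of 12 B lineage genes, all were tested and 2 fell, Vpreb1 and Igll1 (median -0.12). With depth strata 4 of 11 fell (median -0.59), among them Cd79a and the MHC class II genes Cd74 and H2-Ab1. With this choice Vpreb1 did not pass (-0.92 ± 0.34, edgeR adjusted p = 0.259). The immunoglobulin genes Igkc and Jchain, outside this list, were -0.69 and -1.0 over all wells and -1.27 and -1.48 with depth strata. Over all wells the list's summed level was 196 to 706 CPM in stem-like and 241 to 597 CPM in remaining wells. Of 10 macrophage genes, 4 were tested and none was called, with summed levels of 32.9 to 103 and 33.5 to 96.0 CPM. Of 10 T and NK cell genes 9 were detected, with summed levels of 26.8 to 79.5 CPM in stem-like and 22.8 to 58.0 CPM in remaining wells. Only Cd3e of that list was at 0. Of 8 marrow stroma genes 6 were detected (17.7 to 47.8 and 17.1 to 37.9 CPM), and Col3a1 and Dcn were at 0. With the 216 wells above any of these limits left out, 600 genes were called; Ighm was then -0.03 ± 0.08 (adjusted p = 0.903), while Dntt was -0.42 ± 0.08, Irf8 -1.21 ± 0.16 and Hlf 0.89 ± 0.07. Of the lymphoid priming list 3 genes then fell and 1 rose (median -0.10). Of the B lineage list, part of which set the limits, none was called by edgeR (median 0.15).

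Part of the cell cycle genes fell over all wells, and none was called with depth strata. Of 24 genes of G2 and mitosis, all tested, 12 fell and none rose (median -0.49); of 18 S phase genes, 8 fell (median -0.29). Top2a, which untangles DNA in mitosis, had 134, 265 and 526 CPM in stem-like wells and 206, 358 and 525 CPM in remaining wells, lower on 7 of 8 plates (-0.35 ± 0.06, adjusted p = 2.51e-05). Ube2c and Cks2, both needed for passage through mitosis, fell by 0.77 ± 0.14 and 0.65 ± 0.13, and Dut and Mcm5 of DNA replication by 0.52 ± 0.10 and 0.45 ± 0.10. With depth strata no gene of either list was called (edgeR; 3 of 24 and 5 of 18 at an unadjusted p under 0.05), the medians were 0.02 and -0.07, and Top2a was 0.02 ± 0.06. Of 15 tested CDK inhibitor and quiescence genes 1 rose under either choice, Txnip (medians 0.06 and 0.01). Cdk6, which drives entry into the cycle, was the 1 of 7 tested G1 genes that fell (-0.16 ± 0.04, adjusted p = 0.00482; depth strata -0.06, adjusted p = 0.589). Whether cell size or the capture of RNA had a part in the cell cycle difference was not tested.

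Counts of other lists are read against the 3.22% of all genes that rose and the 3.6% that fell (0.499% and 0.367% with depth strata). Of 83 cytosolic ribosomal protein genes 4 rose and 4 fell (median -0.01), and of 79 nuclear respiratory chain genes 10 fell and 1 rose (median -0.14; none with depth strata by edgeR, 12 at an unadjusted p under 0.05). Of 9 tested megakaryocyte genes 2 rose, Mmrn1 and Cd9, and of 9 erythroid genes 2 rose and 3 fell (median -0.40). With depth strata edgeR called 1 of 11 erythroid genes higher and none lower (7 at an unadjusted p under 0.05, median -0.43). Car2, carbonic anhydrase 2 of red cell precursors, rose by 0.31 ± 0.05 (adjusted p = 1.23e-05; depth strata 0.21 ± 0.05). Of 17 interferon-stimulated genes 2 rose (median 0.33; 0.08 with depth strata). Of 9 immediate early and heat shock genes 3 rose, Fos, Jun and Zfp36 (median 0.54), and with depth strata edgeR called none of 8 (2 at an unadjusted p under 0.05; median 0.08). Of 7 mast cell and basophil genes 3 rose, Slc18a2, Gata2 and Kit (median -0.05), and with depth strata edgeR called none (4 at an unadjusted p under 0.05; median 0.27); Cma1 and Tpsb2 were at 0.

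**Figure D4:**
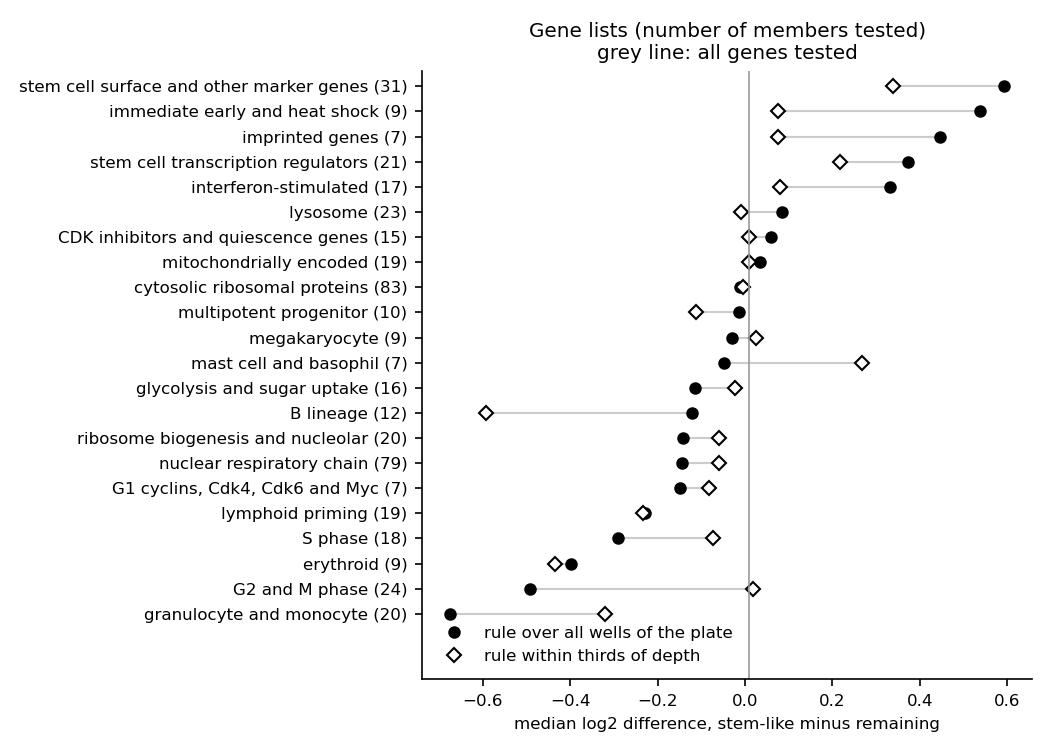
Median log2 difference, stem-like minus remaining wells, of the tested members of each gene list with 7 or more, for wells chosen over the whole plate (filled) and within depth strata (open). The stem cell lists stay above the line of all genes and the granulocyte and lymphoid lists below it, while the G2 and M phase list moves from -0.49 to 0.02.

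Stem-like wells were then compared with remaining wells within the quadrant of low CD135 and high CD150 (164 and 645 wells). The quadrant splits CD135 and CD150 at the plate median and did not match the groups for CD48. On replicates 5 to 8, 8 of 15, 16 of 20, 12 of 17 and 22 of 26 stem-like quadrant wells had CD48 at or below the plate median. Among all quadrant wells these were 37 of 91, 45 of 100, 40 of 90 and 49 of 102. The part of CD48 in the differences below was not tested. Stem-like wells of the quadrant had higher levels of 179 of 5974 tested genes (3%) and lower levels of 184 (3.08%), 6.08% in all. They were again shallower on 8 of 8 plates (mean log2 ratio of median counts -0.45 ± 0.12, SD; exact sign-flip test p = 0.00781), and with depth strata 9 of 6757 genes were higher (0.133%) and 12 lower (0.178%). Without replicate 2 or 4 the total was 239 or 217. Hlf had 206, 440 and 531 CPM in stem-like wells, against 128, 209 and 275 CPM in the remaining wells of the quadrant, higher on 8 of 8 plates (1.0 ± 0.11, adjusted p = 4.93e-10; depth strata 0.77 ± 0.10, adjusted p = 2.48e-06). Mmrn1 had 29.0, 46.1 and 91.3 CPM against 1.93, 20.2 and 26.8 CPM, with no overlap (1.76 ± 0.32, adjusted p = 0.000129; depth strata 1.67 ± 0.30, adjusted p = 0.00116).

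Of the other genes with the largest rises in the quadrant, none passed with depth strata. Tie1, an endothelial receptor kinase gene also active in stem cells, rose by 1.23 ± 0.24 (adjusted p = 0.000496; depth strata 0.77 ± 0.24, adjusted p = 0.189), and Pear1, a platelet receptor gene, by 1.40 ± 0.30 (depth strata 0.93 ± 0.30, adjusted p = 0.214). The interferon-inducible genes Rtp4 and Xaf1 rose by 1.12 ± 0.27 and 1.11 ± 0.31 (depth strata 1.01 and 0.49, adjusted p = 0.0573 and 0.659), and Xaf1 had an adjusted p of 0.13 without replicate 4. Among the largest falls were Ms4a3 (-2.08 ± 0.26; depth strata -0.74 ± 0.30, adjusted p = 0.416), Irf8 (-1.54 ± 0.30; depth strata -1.15 ± 0.30, adjusted p = 0.074) and Hist1h2ah, a replication-dependent H2A histone gene (-1.38 ± 0.14). Hist1h2ah had 55.7, 235 and 422 CPM in stem-like wells and 518, 677 and 1142 CPM in remaining wells of the quadrant, without overlap, and -0.50 ± 0.13 with depth strata (adjusted p = 0.0615); H2A genes are near-identical copies and may share counts. Flt3 (0.07 ± 0.22) and Cd48 (-0.31 ± 0.19) had adjusted p-values of 0.914 and 0.397 within the quadrant.

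Stem-like wells also differed among themselves by Dach1-GFP. Within each plate they were split at their median GFP fluorescence into 25 high and 26 low wells (200 and 208 in all), and of 3357 genes 4 were higher (0.119%) and 7 lower (0.209%) in GFP-high wells. Flt3 had 61.5, 103 and 151 CPM in GFP-high stem-like wells, against 197, 251 and 502 CPM in GFP-low ones. The groups did not overlap (-1.47 ± 0.15, adjusted p = 1.39e-09). Dntt had 50.7, 87.0 and 185 CPM against 110, 249 and 360 CPM, lower on 8 of 8 plates (-1.33 ± 0.16, adjusted p = 1.78e-07). H2afy, which encodes the histone variant macroH2A, had 912, 1172 and 1359 CPM against 1238, 1557 and 2092 CPM (-0.49 ± 0.06, adjusted p = 1.41e-06), and Ighm 31.1, 176 and 518 CPM against 68.5, 368 and 600 CPM (-0.79 ± 0.16, adjusted p = 0.00459), both lower on 8 of 8 plates.

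Cd74, a chaperone of class II MHC molecules, was lower in GFP-high stem-like wells on 7 of 8 plates (-1.44 ± 0.27, adjusted p = 0.00145), and Satb1, whose protein loops chromatin in lymphocytes, on 8 of 8 (-0.71 ± 0.16, adjusted p = 0.0215), though without replicate 2, 3, 4 or 8 it did not pass (adjusted p up to 0.0988). In all, 4 of 12 tested lymphoid priming genes fell (median -0.48, against 0.00 over all genes) and none rose. Of the 12 genes of the B lineage list only 3 were tested. The 2 that fell were the MHC class II genes Cd74 and H2-Ab1 (list median -1.14). The list summed to 81.6 to 560 CPM in GFP-high and 244.5 to 1128 CPM in GFP-low wells. The part of B lineage RNA in the falls of Ighm and Cd74 was not tested. The 4 genes that rose were Tuba1b, an alpha tubulin gene with near-identical copies (0.45 ± 0.07, adjusted p = 3.27e-05), Apoe, the lipid carrier apolipoprotein E (1.0 ± 0.23, adjusted p = 0.0335), Cd63, a tetraspanin of granule membranes (0.84 ± 0.19, adjusted p = 0.0215), and Gm3756, a predicted gene (0.71 ± 0.17, adjusted p = 0.0456). Apoe, Cd63 and Gm3756 each lost their call without 1 of several plates, with adjusted p-values up to 0.134, 0.132 and 0.176. Hlf had 203, 458 and 610 CPM in GFP-high and 273, 435 and 516 CPM in GFP-low wells (0.05 ± 0.11, adjusted p = 0.967). GFP-high wells had more of the rule genes (mean of plate medians 4.37 against 3.43 counts per 10000, on 8 of 8 plates; exact sign-flip test p = 0.00781), and their part in these differences was not tested. Depth differed by a mean log2 ratio of -0.07 ± 0.12 (exact p = 0.141).

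**Figure D5:**
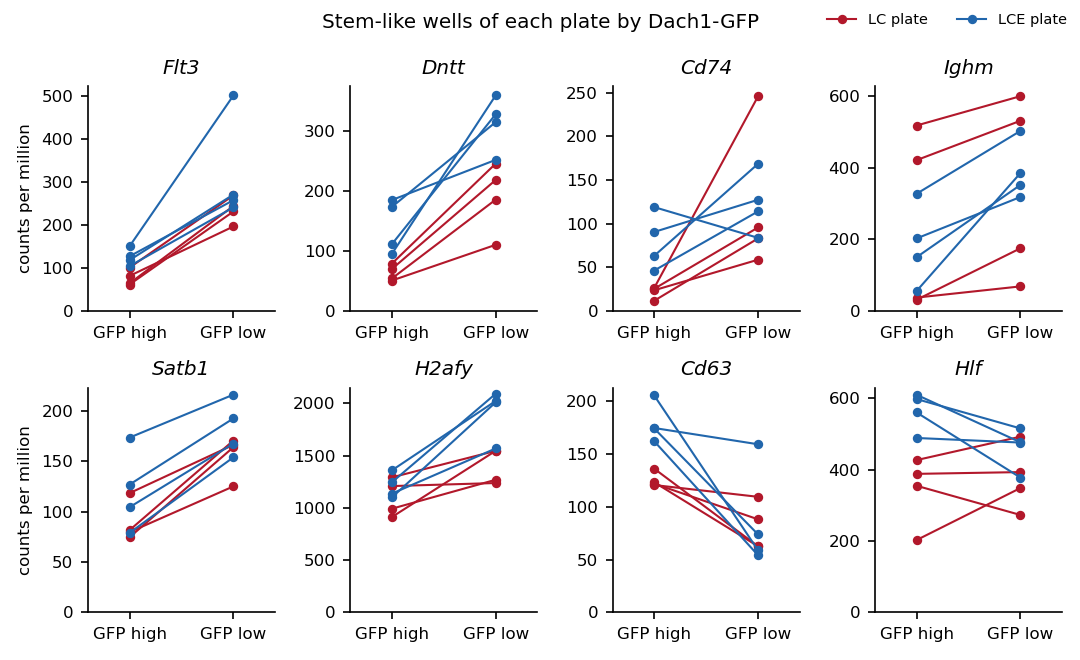
CPM of 8 genes in stem-like wells above (GFP high, left of each panel) and at or below (GFP low, right) their plate's median Dach1-GFP; 1 line joins the values of a plate. Flt3, Dntt, Ighm, Satb1 and H2afy are lower in the GFP-high wells of all 8 plates, Cd74 of 7, and the lines of Hlf go both ways.

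Split by CD150 in the same way, 4 of 3341 genes differed (0.12%): 1 was higher (0.0299%) and 3 lower (0.0898%) in CD150-high stem-like wells. Flt3 had 75.8, 119 and 284 CPM in CD150-high wells and 171, 228 and 364 CPM in CD150-low ones, lower on 8 of 8 plates (-0.78 ± 0.15, adjusted p = 0.00583). Shisa5, a gene of an endoplasmic reticulum protein, had 89.2, 111 and 148 CPM against 149, 201 and 286 CPM, without overlap (-0.78 ± 0.16, adjusted p = 0.00785). Apoe had 16.4, 114 and 183 CPM against 13.3, 52.0 and 75.0 CPM, higher on 7 of 8 plates (1.22 ± 0.25, adjusted p = 0.00785), and Fkbp3, a prolyl isomerase gene, fell by 0.74 ± 0.17 (adjusted p = 0.0493). Without replicate 1 only Flt3 of these passed (adjusted p = 0.0366), and DESeq2 called none of the 4 (59 genes at an unadjusted p under 0.05). Hlf was lower in CD150-high wells on 7 of 8 plates without passing (-0.29 ± 0.10, adjusted p = 0.404). Depth differed by a mean log2 ratio of -0.01 ± 0.18 (exact p = 0.93).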

How the data were processed

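Single-cell counts per gene and well were used as deposited by the authors for 8 plates of CEL-seq2 wells; whether a count is a read or a molecule is not stated. According to the submitters' processing notes the build is GRCh38, although the gene identifiers are those of mouse, so no coordinates are given. The index-sort values were used as deposited by the authors, as linear fluorescence and scatter intensity per sorted cell, negative in places, and were ranked within each plate. CD48, CD16/32, PIR-A and scatter were used on the 4 LCE plates. Total gene counts per plate were 2106403 to 5196601, and 24 kept wells, all among the remaining ones, had no sort record. No doublet caller was run.

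Counts were summed per plate and group and tested with edgeR 4.0.16 in R 4.3.3 (quasi-likelihood test, filterByExpr, TMM, plate as a block because both groups of a plate share it), with Benjamini-Hochberg adjustment over all genes tested and a threshold of 0.05. The rule genes were left out of the tests against remaining wells. Log2 differences carry the SE of the fit. Proteins, shares and depth were compared by exact two-sided sign-flip permutation tests over plates. The scripts were tested on simulated data. The cells, gene lists and tests were chosen with earlier results of these data known. Named genes were Hlf, Dach1, the genes of the sorted proteins, the called genes with the largest differences at 10 CPM or more in 1 direction on all plates (7 of 8 within stem-like wells), and up to 4 called members of each list by adjusted p (8 of the stem cell lists); Cd9, Igll1 and others that complete a small count were named after their values were seen. Alternatives were another normalization, DESeq2 1.42.0, no filter, no block, each plate set, each plate left out, other shares of wells, depth strata, thinning, limits on mitochondrial and other RNA, and rules of 4 genes. A few genes of the lists are not reported here.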

Additional observations from a re-analysis of the deposited data

Results flagged for a closer look

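Among 53 genes tested for a plate far from the others, 5 stood out, and chance marks about 1 in 20. The log2 difference between stem-like and remaining wells of Nfatc2 was 2.87 on replicate 2, that of Atp7a 2.25 on replicate 7, that of Vpreb1 -4.09 on replicate 1 and that of Sgo2a -2.03 on replicate 5. Ly6a was -0.25 on replicate 8 and above 0 on the other plates.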

How the results depend on the processing

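The count of 723 genes was 443 with DESeq2, 1 without the plate block, 358 on LC and 132 on LCE plates alone, 92 with depth strata, 5 with thinned wells, 382 with the rule without Mecom, 366 for members with 3 or more rule counts, and 451 to 732 with 1 plate left out. Without a filter on low counts it was 1077, of which 163 were higher and 914 lower. The quadrant's 363 became 224 with DESeq2, 27 without the plate block, 137 on LC and 74 on LCE plates, 21 with depth strata, and 217 to 339 with 1 plate left out. The 4 genes by CD150 became 0 with DESeq2, without the plate block and on LCE plates (59, 84 and 101 at an unadjusted p under 0.05), and 1 to 6 with 1 plate left out. The 11 genes by GFP became 5 with DESeq2, 28 without the filter, 1 without the plate block, 6 on LCE plates, and 7 to 13 with 1 plate left out. Of 12 sort measures, 4 passed with depth strata and 0 with any 1 plate left out (3 to 5 at an unadjusted exact p under 0.05). Of the held-out rule genes, 2 passed with depth strata and 1 on LCE plates. Signs turned without the filter for Rpl4 (-0.013), mt-Cytb (-0.0014), mt-Rnr1 (-0.024) and mt-Co1 (-0.030), on LCE plates for Jun (-0.057), and with depth strata for Top2a (0.022) and Zfp36 (-0.010). With thinned wells they turned for Gm10259 (0.16), Cdca3 (0.41), Car2 (-0.0027), Jun (-0.035), Zfp36 (-0.14), Rpl41 (0.032), Rps2 (0.018), Rpl4 (-0.011), mt-Rnr2 (-0.050), mt-Cytb (-0.0025), mt-Rnr1 (-0.035), mt-Co1 (-0.0034), Atp5g1 (0.068) and Ndufs6 (0.090). The cause was not tested. Of all recomputed values, 2782 kept direction and side of the threshold and 670 no longer passed. The limits to 3 or more rule counts and to wells with a sort record, and depth strata for the quadrant and the held-out genes, were chosen after seeing the data.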

Other observations

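Some genes outside the lists, named after their values were seen, were called both over all wells and with depth strata. Malat1, a nuclear long noncoding RNA, was higher by 0.39 over all wells and 0.22 with depth strata. The MHC class I genes H2-K1 and B2m were higher by 0.26 and 0.21 over all wells, and by 0.17 and 0.13 with depth strata. H2afy was lower, at -0.22 and -0.21.

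MHC class II genes went opposite ways under the 2 choices of wells. Over all wells Cd74, H2-Aa and H2-Ab1 had log2 differences of 0.20, 0.34 and 0.23 and did not pass (edgeR, adjusted p = 0.436, 0.149 and 0.279). With depth strata they were -0.78, -0.54 and -0.49 (adjusted p = 8.20e-05, 0.0208 and 0.0105).

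Xist, expressed in female cells, had 21.6 to 32.8 CPM in stem-like and 30.0 to 65.7 CPM in remaining wells of the LC plates, and at most 2.94 and 0.972 CPM on the LCE plates (log2 difference -0.94 ± 0.24, edgeR adjusted p = 0.00509; depth strata -1.15 ± 0.22). The part of the animals' sex in the other differences was not tested.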
